A study of Mus musculus with 6 samples.

Results

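The genes described here are 9 components of the tight junction and of its apical polarity partner: the claudins Cldn3, Cldn4, Cldn6 and Cldn7, occludin (Ocln), the Crumbs family member Crb3, the scaffolds Tjp1 and Tjp3, and cingulin (Cgn). They were chosen by name, as every array probe whose RefSeq transcript maps to one of these symbols. This gave 12 probes among 55681 on the array, for 9 of 20972 named genes. All 9 genes were among the 14595 genes tested, and 7 of the 9 were well above background on all 6 arrays.

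Tight junctions seal the space between neighbouring epithelial cells close to their apical border. Claudins form the barrier itself by pairing across the gap between cells, occludin sits in the same strands, and cytoplasmic scaffolds tie these membrane proteins to the actin cytoskeleton. In the mouse embryo such junctions are assembled by the trophectoderm, the outer epithelium of the blastocyst, before implantation.

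The transcripts were measured in stable lines of ZHBTc4 cells, mouse embryonic stem cells with no intact endogenous Oct4 allele, in which an Oct4 transgene is silenced by tetracycline. Every line had been kept alive by a POUV protein expressed from an introduced CAG promoter plasmid. The protein was coelacanth POU5F3 (LcPOU5F3, clones 1 and 2), coelacanth POU5F1 (LcPOU5F1, clones 4 and 5) or mouse OCT4 (mOct4, clones 1 and 2). All lines shared tetracycline at 2 µg/mL from plating, puromycin at 1 µg/mL from day 2, medium with serum and LIF, and picking of colonies at day 9. Each line is 1 clone and was measured on 1 array, so each group has n = 2. The p-values below therefore measure the spread between separately picked clones.

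Signals are given on a log2 scale relative to the 75th percentile of the array, so that 0 is the level of that percentile and 1 unit is a doubling. A change was called at an adjusted p under 0.05, from limma with Benjamini-Hochberg adjustment over all 14595 genes. The spread of a gene was estimated from all groups together, so the LcPOU5F1 pair also enters the errors of LcPOU5F3 against mOct4. The members' median standard deviation between clones was 1.19 in LcPOU5F1, 0.23 in LcPOU5F3 and 0.14 in mOct4. The value of 1.19 is that of Ocln, not well above background in the LcPOU5F1 clones. The share of probes well above background ranged over the arrays between 43.5% and 57.8%, and no spot was saturated. All 8 listed embryonic stem cell markers were well above background on all 6 arrays. The mouse Pou5f1 probe was well above background on 0 of the 4 coelacanth-rescued arrays and on 2 of the 2 mOct4 arrays.

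Both LcPOU5F3 clones carried more of all 9 transcripts than either mOct4 clone. Of the 9 genes, 7 rose past the threshold in LcPOU5F3 clones against mOct4 clones: Cldn4, Cldn6, Cldn7, Ocln, Crb3, Tjp1 and Cgn. Over all genes tested, 23.6% were called in this comparison, and 11.8% were called higher. The largest difference was that of Cldn6, at 42.8-fold, followed by Cldn7 at 17.9-fold. Cldn3 and Tjp3 were higher by 5.59-fold and 2.12-fold but did not pass the threshold. The median log2 fold change over the 9 genes was 2.76, against -0.09 over all genes tested. Ocln passed the filter on dim probes only through the LcPOU5F3 arrays, and 6 of the other 8 genes rose. Arrays read the pooled RNA of a culture, so a larger share of cells with a transcript and more RNA per cell cannot be told apart.

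These calls rest on the presence of both mOct4 clones. With mOct4 clone 1 or clone 2 left out, 0 of the 9 genes were called by limma, where 0.240% or 0.281% of all genes were called. In these fits 7 of the 9 had an unadjusted p under 0.05, against 25.1% or 23.2% of all genes, and all 9 fold changes stayed above 0. mOct4 clone 2 was also the only array on its slide, so comparing within the other slide is the same as leaving that clone out. The count was 5 of 9 without LcPOU5F3 clone 2, beside 19.7% of all genes, and 4 of 9 with no filter on dim probes, beside 7.35%.

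**Figure D1:**
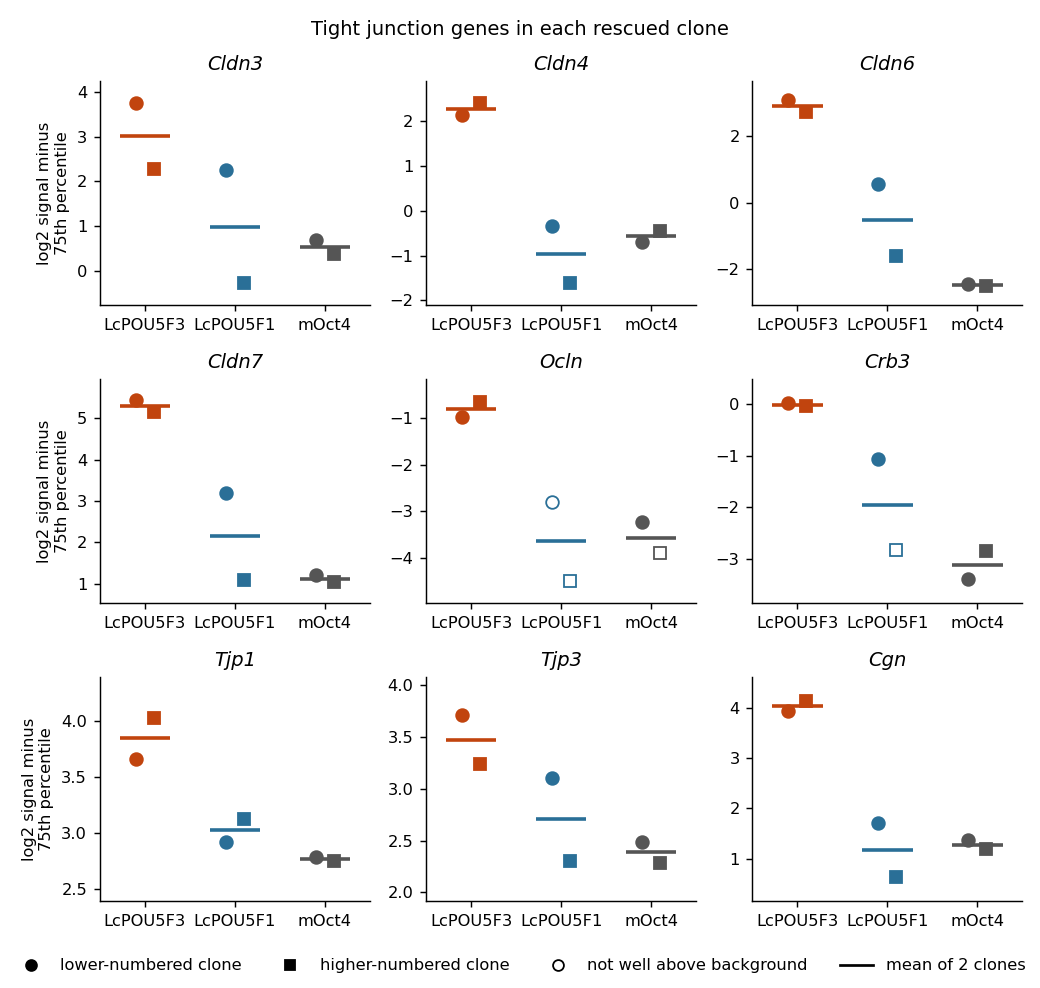
Signal of the 9 tight junction genes in each clone, as log2 signal minus the 75th percentile of the array (vertical axis) for LcPOU5F3, LcPOU5F1 and mOct4 lines (horizontal axis). Points are clones, open symbols are signals not well above background, and short lines are means of 2 clones. The vertical axes differ between panels. Both LcPOU5F3 clones lie above both mOct4 clones in all 9 panels, and the LcPOU5F1 clones lie far apart for most claudins.

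Promoter sequence was read because 7 of the 9 genes rose together. RefSeq windows of the GRCm38.p6 build, from 250 bases before to 50 bases after the annotated start, gave 13 windows for the 9 genes. The E-box CACCTG, the site of the Snail and Zeb repressors, was searched on both strands. It was present in 10 of 13 windows, covering 7 of the 9 genes (all but Tjp1 and Cgn), against 20.2% of all 32851 windows. Tjp1 and Cgn, which lack it, rose past the threshold, while Cldn3 and Tjp3, which hold it, did not. At least 2 E-boxes were present in 6 of the 13 windows, against 2.88% of all windows. The windows of the 9 genes had a median GC content of 62.3%, against 52.7% over all windows, and overlapping windows of 1 gene share sequence. A match is a description of these letters and not a site of binding.

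Ocln also rose and has a window with 2 E-boxes, at -213 and -68 from its start, which is not shown. The following windows are shown because they belong to the 3 claudins that rose and to Crb3, and because each holds at least 2 E-boxes. They read 5′ to 3′ on the strand of the gene, with capitals marking CACCTG or its reverse complement CAGGTG. Cldn4 lies at chr5:134946885-134947184 on the minus strand, Cldn6 at chr17:23679115-23679414, Cldn7 at chr11:69965171-69965470 and Crb3 at chr17:57061951-57062250, all 3 on the plus strand.
Cldn4: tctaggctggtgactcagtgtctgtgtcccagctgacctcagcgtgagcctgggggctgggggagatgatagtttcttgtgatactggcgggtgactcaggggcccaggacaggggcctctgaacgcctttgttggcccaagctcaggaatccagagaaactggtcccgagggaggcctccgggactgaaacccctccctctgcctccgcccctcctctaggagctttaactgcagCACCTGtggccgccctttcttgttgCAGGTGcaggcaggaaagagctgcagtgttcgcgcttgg
Cldn6: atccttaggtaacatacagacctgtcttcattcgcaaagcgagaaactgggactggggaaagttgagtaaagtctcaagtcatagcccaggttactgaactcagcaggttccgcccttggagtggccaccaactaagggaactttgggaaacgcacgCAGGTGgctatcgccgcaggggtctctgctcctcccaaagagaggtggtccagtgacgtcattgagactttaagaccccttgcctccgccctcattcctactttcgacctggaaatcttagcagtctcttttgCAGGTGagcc
Cldn7: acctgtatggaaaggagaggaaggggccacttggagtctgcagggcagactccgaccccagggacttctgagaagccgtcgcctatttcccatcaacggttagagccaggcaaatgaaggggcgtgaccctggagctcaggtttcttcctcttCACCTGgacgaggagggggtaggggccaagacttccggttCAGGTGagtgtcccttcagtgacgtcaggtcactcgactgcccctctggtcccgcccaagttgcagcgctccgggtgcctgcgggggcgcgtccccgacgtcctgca
Crb3: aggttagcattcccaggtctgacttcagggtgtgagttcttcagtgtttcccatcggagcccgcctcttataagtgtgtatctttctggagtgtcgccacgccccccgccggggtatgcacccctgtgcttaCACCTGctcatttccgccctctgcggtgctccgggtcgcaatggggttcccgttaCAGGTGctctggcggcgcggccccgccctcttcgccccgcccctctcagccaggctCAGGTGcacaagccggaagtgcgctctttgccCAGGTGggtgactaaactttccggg

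Counted from the annotated start, the E-boxes of these windows begin at -14 and 12 in Cldn4 and at -93 and 41 in Cldn6. In Cldn7 they begin at -97 and -57, and Crb3 holds 4, at -118, -63, -7 and 26. The other motifs were searched in the same way. The GC box GGGCGG was present in 10 of the 13 windows, covering 8 of the 9 genes, and in 35.7% of all windows. The octamer ATGCAAAT, the site of OCT4-type factors, was in 0 of the 13 windows and in 1.74% of all windows, and the looser ATGCNAAT, which includes it, was in a Tjp3 window and in 3.15% of all. The Grainyhead-like motif AACCGGTT and the Cdx motif TTTATNG were each in 0 of the 13 windows, against 0.146% and 10.9% of all. No match says only that these letters are absent from these windows.

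Cldn6, a claudin of embryonic epithelia, had the lowest signals of its range in the mOct4 lines. Its signal was 3.09 and 2.75 in LcPOU5F3 clones 1 and 2, 0.56 and -1.60 in LcPOU5F1 clones 4 and 5, and -2.46 and -2.53 in mOct4 clones 1 and 2. The groups did not overlap, and the LcPOU5F1 clones lay between the other two groups but far apart from each other. The log2 fold change of LcPOU5F3 over mOct4 was 5.42 ± 0.69 (SE), with an adjusted p of 0.0109 in limma, and it was 4.09 under normexp background correction. The difference from LcPOU5F1 clones was 3.45 ± 0.69, or 10.9-fold, with an adjusted p of 0.0305, and it was 2.37 or 4.53 with only LcPOU5F1 clone 4 or only clone 5.

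Cldn7, which is also known for its association with the adhesion molecule EpCAM, had a signal of 5.43 and 5.14 in LcPOU5F3 clones, 3.19 and 1.09 in LcPOU5F1 clones, and 1.21 and 1.04 in mOct4 clones. LcPOU5F3 clones were highest, LcPOU5F1 clone 4 was intermediate, and LcPOU5F1 clone 5 lay within the mOct4 range. The log2 fold change of LcPOU5F3 over mOct4 was 4.16 ± 0.67 (limma adjusted p = 0.0171). Over LcPOU5F1 it was 3.14 ± 0.67, or 8.83-fold (adjusted p = 0.0348), and it was 2.09 or 4.19 with only LcPOU5F1 clone 4 or only clone 5.

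Cldn4 and Cldn3 are barrier-forming claudins whose genes are direct neighbours on chromosome 5, with no other protein-coding gene between them. Cldn4 had 2.13 and 2.39 in LcPOU5F3 clones, -0.34 and -1.61 in LcPOU5F1 clones, and -0.69 and -0.45 in mOct4 clones. Here the LcPOU5F1 and mOct4 clones overlapped, and only LcPOU5F3 clones stood apart. Cldn4 rose 7.11-fold in LcPOU5F3 clones against mOct4 clones (log2 2.83 ± 0.43, limma adjusted p = 0.0153) and 9.40-fold against LcPOU5F1 clones (log2 3.23 ± 0.43, adjusted p = 0.0134). A second Cldn4 probe read -0.28 and -3.49 in LcPOU5F1 clones 4 and 5, the latter not well above background. That spread enters the error of this probe in every comparison. The probe gave 9.24-fold against mOct4 clones but did not pass the threshold in the fit of every kept probe (limma adjusted p = 0.0967). That fit called 12.6% of its 30944 probes.

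By the brightest probe of each gene, Cldn3 had the widest clone spread among the 9 genes in the LcPOU5F3 and LcPOU5F1 pairs. Its signal was 3.74 and 2.27 in LcPOU5F3 clones, 2.25 and -0.28 in LcPOU5F1 clones, and 0.68 and 0.36 in mOct4 clones. LcPOU5F3 clone 2 and LcPOU5F1 clone 4 were nearly level, while LcPOU5F1 clone 5 was the lowest of all lines. The log2 fold change of LcPOU5F3 over mOct4 was 2.48 ± 0.93 and did not pass the threshold (limma adjusted p = 0.111). The same holds against LcPOU5F1 clones, at 2.02 ± 0.93 (adjusted p = 0.172).

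Occludin is a membrane-spanning protein of the junction strands. Its brighter probe read -0.98 and -0.66 in LcPOU5F3 clones, -2.80 and -4.49 in LcPOU5F1 clones, and -3.24 and -3.90 in mOct4 clones. Both LcPOU5F1 signals and that of mOct4 clone 2 were not well above background, so Ocln was measured in the LcPOU5F3 clones and in mOct4 clone 1. It rose in LcPOU5F3 clones against mOct4 clones, by a fitted log2 value of 2.75 ± 0.59 (limma adjusted p = 0.0311) that rests in part on the unmeasured mOct4 signal. Ocln passed the filter only through the LcPOU5F3 arrays, so its call is not independent of the filter. The value was 1.62 with dim signals raised to a common floor and 1.28 under normexp, and Ocln was called under both. Against LcPOU5F1 clones it was at least 3.49-fold higher (adjusted p = 0.0326). That bound sets the mean of the LcPOU5F3 clones against the lowest signal well above background on each LcPOU5F1 array, or the probe's own where that was higher. A second Ocln probe was well above background only on the array of LcPOU5F3 clone 2 and was not tested.

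Crb3, a small transmembrane protein of the Crumbs polarity complex that marks the apical side of the junction, read 0.02 and -0.04 in LcPOU5F3 clones, -1.07 and -2.83 in LcPOU5F1 clones, and -3.39 and -2.84 in mOct4 clones. LcPOU5F1 clone 5, not well above background, was level with mOct4 clone 2, and clone 4 was above both mOct4 clones. Crb3 rose 8.60-fold in LcPOU5F3 clones against mOct4 clones (log2 3.10 ± 0.59, limma adjusted p = 0.0239), and the log2 value was 1.81 under normexp and 2.43 with the common floor. A second probe gave 6.11-fold (adjusted p = 0.0338 in the fit of every kept probe). Against LcPOU5F1 clones the value was 3.84-fold and did not pass the threshold (adjusted p = 0.0746).

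The scaffolds differed by less. Tjp1, the zonula occludens scaffold that binds claudins to actin, read 3.66 and 4.03 in LcPOU5F3 clones, 2.92 and 3.13 in LcPOU5F1 clones, and 2.78 and 2.75 in mOct4 clones. The 3 groups did not overlap, but LcPOU5F1 and mOct4 clones were close. Tjp1 rose 2.12-fold in LcPOU5F3 clones against mOct4 clones (log2 1.08 ± 0.19, limma adjusted p = 0.0198) and 1.77-fold against LcPOU5F1 clones (log2 0.83 ± 0.19, adjusted p = 0.0392).

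Tjp3, a related scaffold of epithelial cells, read 3.71 and 3.24 in LcPOU5F3 clones, 3.11 and 2.30 in LcPOU5F1 clones, and 2.49 and 2.28 in mOct4 clones. LcPOU5F1 clone 4 lay close under LcPOU5F3 clone 2, and clone 5 lay in the mOct4 range. Its log2 fold change of LcPOU5F3 over mOct4, 1.09 ± 0.33, was about that of Tjp1, but its clones spread more and it was not called (limma adjusted p = 0.0678).

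Cingulin, a plaque protein that links the scaffolds to the cytoskeleton, read 3.94 and 4.14 in LcPOU5F3 clones, 1.70 and 0.63 in LcPOU5F1 clones, and 1.37 and 1.18 in mOct4 clones. LcPOU5F3 clones were close together and above all other lines, while the LcPOU5F1 clones lay on either side of the mOct4 pair. Cgn rose 6.77-fold in LcPOU5F3 clones against mOct4 clones (log2 2.76 ± 0.37, limma adjusted p = 0.0120) and 7.31-fold against LcPOU5F1 clones (log2 2.87 ± 0.37, adjusted p = 0.0121).

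**Figure D2:**
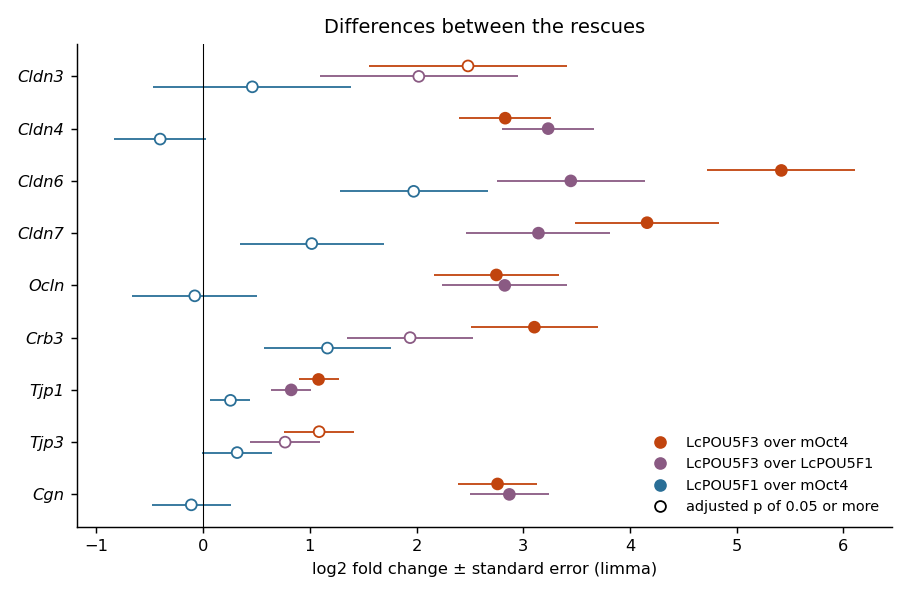
Log2 fold change of each gene with its standard error from limma (horizontal axis) for LcPOU5F3 over mOct4, LcPOU5F3 over LcPOU5F1 and LcPOU5F1 over mOct4. Filled points have an adjusted p under 0.05. Filled points appear for 7 genes against mOct4 and for 6 against LcPOU5F1, and none for LcPOU5F1 over mOct4.

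Against LcPOU5F1 clones, 6 of the 9 genes rose in LcPOU5F3 clones: Cldn4, Cldn6, Cldn7, Ocln, Tjp1 and Cgn. Over all genes 20.5% were called in this comparison, with 9.98% higher and 10.5% lower. The lowest LcPOU5F3 clone was above the highest LcPOU5F1 clone for 9 of 9 genes, a pattern met by 24.0% of all genes, and for Cldn3 the margin was 2.27 against 2.25. The same non-overlap against mOct4 clones also held for 9 of 9 genes, against 30.0% of all genes. The median log2 fold change of LcPOU5F3 over LcPOU5F1 was 2.83, against -0.21 over all genes tested. Both comparisons use the same LcPOU5F3 arrays. In a fit of only the 4 arrays compared, 0 of the 9 genes were called by limma against LcPOU5F1, where 3.41% of all genes were called. There 7 of the 9 had an unadjusted p under 0.05 in limma, against 29.8% of all genes. Leaving out either mOct4 clone gives the same fit for this comparison and is no further check, since a lone mOct4 array adds no spread. Without LcPOU5F3 clone 2 the count was 2, beside 13.1% of all genes, and without LcPOU5F1 clone 5 it was 4, beside 3.34%. With dim signals raised to a common floor, Cldn6 and Cldn7 were no longer called against LcPOU5F1 (limma adjusted p = 0.0526 and 0.0592).

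Between LcPOU5F1 and mOct4 clones, 0 of the 9 genes were called by limma, where 0.0343% of all genes were called. Of the 9 genes 1 had an unadjusted p under 0.05 in limma, against 15.5% of all genes. This was Cldn6, at 3.93-fold (limma adjusted p = 0.291). The other values lay between a log2 fold change of 1.16 for Crb3 (2.24-fold, adjusted p = 0.404) and -0.40 for Cldn4 (adjusted p = 0.664). Centring the arrays on their median made Cldn6 pass the threshold in this comparison. Both LcPOU5F1 clones were above both mOct4 clones for 3 of the 9 genes (Cldn6, Tjp1 and Crb3), against 38.6% of all genes, and for Crb3 the lower LcPOU5F1 signal was not well above background. Few genes of any kind were called between these groups, so the count of 0 is no result about the 9 genes.

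The LcPOU5F1 clones differed from each other in the tight junction genes more than in most of the transcriptome. LcPOU5F1 clone 4 read above clone 5 for 8 of the 9 genes (Ocln among them, measured in neither clone), against 50.8% of all genes. The difference was 5.78-fold for Cldn3, 4.47-fold for Cldn6, 4.29-fold for Cldn7 and 2.42-fold for Cldn4. For Crb3 it was at least 2.60-fold, since clone 5 was not well above background and was set to the lowest measurable signal of its array. Tjp1 was the exception, with clone 4 lower by 0.21 on the log2 scale. As fitted, clone 4 was higher by at least 1 on the log2 scale for 7 of the 9 genes, against 3.03% of all genes tested. With dim signals set to that array floor, and Ocln left out because neither clone measured it, this held for 6 of the 9, against 1.71% of all genes.

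The median absolute difference between the LcPOU5F1 clones was 1.68 over the 9 genes, against 0.213 over all genes, and 1.68 is the value of Ocln, whose signals were not measured. Between the LcPOU5F3 clones it was 0.324 over the 9 genes, against 0.328 over all genes, and 1 of the 9 (Cldn3) differed by at least 1, as did 14.6% of all genes. Between the mOct4 clones it was 0.202, against 0.151 over all genes, and 0 of the 9 differed by at least 1, as did 0.891% of all genes. The spread of the 9 genes was thus above that of all genes by the widest margin in the LcPOU5F1 pair. Each clone has 1 array, and the difference between 2 clones was not tested.

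Set against the mean of the mOct4 clones, the 2 LcPOU5F1 clones lay on different sides for 6 of the 9 genes, Ocln among them. For Cldn7 and Tjp3, clone 5 lay within the range of the mOct4 clones, at -0.03 and -0.08 from their mean. The share of all genes with such a pattern is not given here, so the count is not read as a result about the 9 genes. Clone 4 was higher than that mean by 3.05 for Cldn6, 2.07 for Cldn7, 2.05 for Crb3 and 1.73 for Cldn3 on the log2 scale. Clone 5 differed from it by 0.89 for Cldn6, -0.03 for Cldn7, 0.28 for Crb3 (from a signal not well above background) and -0.80 for Cldn3.

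**Figure D3:**
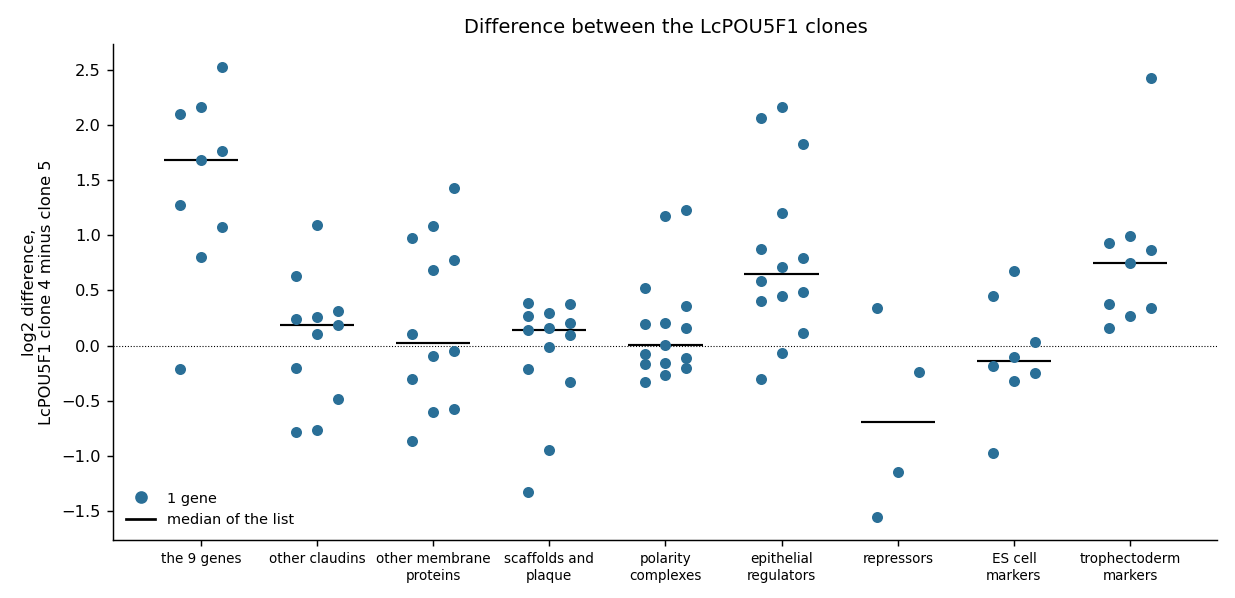
Difference between LcPOU5F1 clone 4 and clone 5 in log2 signal (vertical axis) for the genes of each list (horizontal axis). Points are genes and short lines are list medians. The 9 tight junction genes have a median of 1.68, the trophectoderm markers 0.75, the epithelial regulators 0.65, and the embryonic stem cell markers -0.14.

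Genes known to act on epithelial junctions were read beside this clone difference. Grhl2, a Grainyhead-like factor that activates junction genes in epithelia, had 2.42 and 2.25 in LcPOU5F3 clones, 1.99 and -0.07 in LcPOU5F1 clones, and -0.13 and -0.35 in mOct4 clones. LcPOU5F1 clone 4 was near the LcPOU5F3 lines, and clone 5 lay close to the mOct4 lines. Esrp1, an epithelial splicing regulator, had 2.20 and 1.55 in LcPOU5F3 clones, 1.69 and -0.48 in LcPOU5F1 clones, and 0.04 and 0.06 in mOct4 clones. LcPOU5F1 clone 4 lay within the range of the LcPOU5F3 clones and clone 5 under both mOct4 clones. Of 14 epithelial regulators tested, 4 were higher in clone 4 than in clone 5 by at least 1 (Grhl1, Grhl2, Elf3 and Esrp1) and 0 were lower by that much, with or without the array floor, against 3.03% of all genes higher without it.

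Of 4 repressors of epithelial junction genes tested, a class that binds the E-box CACCTG, 2 were lower in clone 4 by at least 1, Zeb1 and Snai2, and 0 were higher by that much. Over all genes 2.25% were lower in clone 4 by at least 1. Zeb1 read -0.39 in clone 4 and 0.76 in clone 5, and Snai2 read -2.16 and -0.60. The LcPOU5F3 clones also differed in Snai2, at -1.85 in clone 1 and -0.43 in clone 2. The 8 embryonic stem cell markers differed little between the LcPOU5F1 clones, with a median of -0.14 and 0 of 8 apart by at least 1. The 9 trophectoderm markers tested had a median difference of 0.75 between clone 4 and clone 5, beside 0.65 for the epithelial regulators. As fitted, 1 of these 9 markers (Cdx2) was higher in clone 4 by at least 1, against 3.03% of all genes. Once dim signals were set to the array floor, 0 of them differed by that much. Cdx2, a trophectoderm transcription factor gene, read 3.09 and 3.38 in LcPOU5F3 clones, -2.26 and -4.69 in LcPOU5F1 clones, and -0.55 and -0.62 in mOct4 clones, with LcPOU5F1 clone 5 not well above background. Krt8, a keratin of the trophectoderm, was high in LcPOU5F3 clones, at 6.42 and 6.69, against 1.63 and 1.36 in LcPOU5F1 clones and 0.76 and 0.71 in mOct4 clones. The part of any of these genes in the difference between the LcPOU5F1 clones was not tested.

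The wider set of junction genes was examined in lists set by gene function. Among 23 other claudins, 11 passed the filter for measurable signal. Of these, 1 rose in LcPOU5F3 clones against mOct4 clones and 0 fell, set beside 11.8% of all genes called in each direction. The gene was Cldn12, with 2.88 and 3.24 in LcPOU5F3 clones, 2.58 and 2.32 in LcPOU5F1 clones, and 2.32 and 2.20 in mOct4 clones, or 1.74-fold (limma adjusted p = 0.0421). Cldn9, the gene next to Cldn6 on chromosome 17, had 0.33 and -0.11 in LcPOU5F3 clones, -0.35 and -1.45 in LcPOU5F1 clones, and -1.39 and -1.32 in mOct4 clones. LcPOU5F3 clones were highest and LcPOU5F1 clone 4 came next, and the log2 fold change of 1.47 over mOct4 clones was not called (adjusted p = 0.0515). Cldn9 is named here as a neighbour of Cldn6. Against LcPOU5F1 clones 0 of the 11 were called by limma, where 20.5% of all genes were called.

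Among 12 other membrane proteins of the tight junction, 4 rose in LcPOU5F3 clones against mOct4 clones and 0 fell, beside 11.8% of all genes called in each direction: Marveld2, F11r, Marveld3 and Cxadr. Marveld2 (tricellulin), which sits where 3 cells meet and whose gene adjoins Ocln on chromosome 13, had 1.21 and 1.12 in LcPOU5F3 clones, -1.24 and -1.34 in LcPOU5F1 clones, and -1.57 and -1.49 in mOct4 clones. Its clones agreed closely in every group, and it rose 6.48-fold against mOct4 clones (log2 2.70 ± 0.14, limma adjusted p = 0.00290). F11r, the junctional adhesion molecule A, had 5.37 and 5.75 in LcPOU5F3 clones, 3.93 and 3.15 in LcPOU5F1 clones, and 3.35 and 3.34 in mOct4 clones. It rose 4.65-fold (adjusted p = 0.0124). Against LcPOU5F1 clones, where 9.98% of all genes rose and 10.5% fell, 4 rose, namely Marveld2, F11r, Marveld3 and Lsr, a receptor found where several cells meet. Of the 12, 1 fell: Jam2, a junctional adhesion molecule, by 2.87 on the log2 scale (adjusted p = 0.0416).

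Among 13 scaffold and plaque genes tested, 4 rose in LcPOU5F3 clones against mOct4 clones and 1 fell, beside 11.8% of all genes in each direction. The risers were the 3 angiomotin family genes and Magi3, a membrane-associated guanylate kinase. Amot (angiomotin), a junction protein that binds the coactivator YAP, had 3.96 and 4.74 in LcPOU5F3 clones, 0.26 and -0.13 in LcPOU5F1 clones, and -0.38 and -0.37 in mOct4 clones. LcPOU5F3 clones stood far above the rest, at 26.4-fold over mOct4 clones (log2 4.72 ± 0.30, limma adjusted p = 0.00445). Arhgef2, a protein held at junctions by cingulin, fell by 1.13 on the log2 scale (adjusted p = 0.0173). Against LcPOU5F1 clones 3 rose (Amot, Amotl1 and Amotl2) and Arhgef2 fell, beside 9.98% and 10.5% of all genes.

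Among 15 polarity genes tested, 5 rose in LcPOU5F3 clones against mOct4 clones and 1 fell, beside 11.8% of all genes in each direction. Patj, the scaffold that links the Crumbs complex to the junction, had 1.36 and 1.50 in LcPOU5F3 clones, -0.42 and -1.60 in LcPOU5F1 clones, and -1.83 and -2.07 in mOct4 clones. It rose 10.4-fold against mOct4 clones (limma adjusted p = 0.00959), and LcPOU5F1 clone 4 was again the higher of its pair. Pard6g, Pard6b, Dlg1 and Prkci also rose, by log2 fold changes of 1.72, 1.60, 0.81 and 0.70. A second Dlg1 probe, at 0.57, was not called in the fit of every kept probe (limma adjusted p = 0.155). Crb2, a relative of Crb3, ran the other way and fell by 2.25 on the log2 scale (adjusted p = 0.00846), with its signal well above background on 1 of the 2 LcPOU5F3 arrays. Against LcPOU5F1 clones 5 polarity genes rose and 0 fell: Patj, Pard6b, Pard6g, Prkcz and Dlg1, beside 9.98% of all genes called higher. Prkcz rose by its brightest probe only. Its other kept probes, at log2 fold changes of -0.02 and 0.17, were not called in the fit of every kept probe.

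Among 14 epithelial regulators tested, 6 rose in LcPOU5F3 clones against mOct4 clones and 0 fell, beside 11.8% of all genes in each direction. Grhl2 rose 5.96-fold against mOct4 clones (limma adjusted p = 0.0474). In the fit of every kept probe that probe was not called (limma adjusted p = 0.0635). A second Grhl2 probe, at a log2 fold change of 2.11, was not called there either (adjusted p = 0.0541). Prss8, Esrp2, St14 and Spint1, of which 3 belong to a membrane protease system of epithelia, rose by log2 fold changes of 2.51, 2.24, 1.77 and 1.51. Against LcPOU5F1 clones 5 regulators rose, among them Prss8, Spint1, Esrp2 and St14, and 0 fell, beside 9.98% and 10.5% of all genes. Of the 4 repressors tested, 0 were called in any of the 3 comparisons by limma. Between LcPOU5F1 and mOct4 clones, 0 genes of these lists were called by limma. An unadjusted p under 0.05 was reached there by 3 of 12 membrane protein genes, 2 of 15 polarity genes and 1 of 4 repressors. In limma this level was reached by 0 of the other claudins, scaffolds and epithelial regulators, and by 15.5% of all genes.

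**Figure D4:**
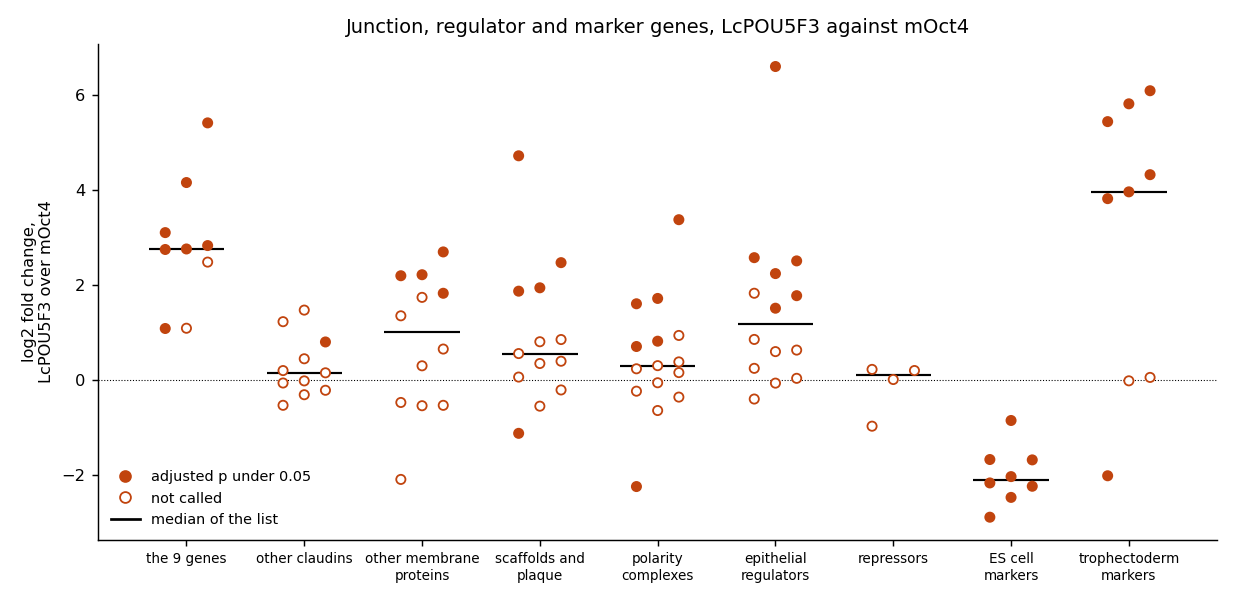
Log2 fold change of LcPOU5F3 over mOct4 (vertical axis) for the genes of each list (horizontal axis). Filled points have an adjusted p under 0.05 and short lines are list medians. The 9 tight junction genes have a median of 2.76, while the other claudins have a median of 0.15 and the embryonic stem cell markers lie under 0.

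Markers of other cell states moved in the same comparison, in which 11.8% of all genes were called in each direction. Of 8 embryonic stem cell markers, 8 fell in LcPOU5F3 clones against mOct4 clones by their brightest probe. A second Nanog probe, at a log2 fold change of -0.09, was not called in the fit of every kept probe. The summed signal of the 8 markers, with the 75th percentile set to 1, was 132 and 68.9 in LcPOU5F3 clones. It was 404 and 443 in LcPOU5F1 clones, and 410 and 434 in mOct4 clones. Of 9 trophectoderm markers tested, 6 rose (Cdx2, Gata3 and 4 keratins) and Eomes fell, while Hand1 and Tfap2c had log2 fold changes of -0.02 and 0.05 and were not called. The summed signal of that list was 521 and 543 in LcPOU5F3 clones, 32.2 and 23.6 in LcPOU5F1 clones, and 35.3 and 35.8 in mOct4 clones, and Elf5 was not well above background on any array. Most of that sum in LcPOU5F3 clones came from Krt18, at 8.55 and 8.58, and Krt8. Of 4 primitive endoderm markers tested, 2 rose (Dab2 and Lamb1), and Gata4 and Sox17 were not called (adjusted p = 0.348 and 0.299). They summed to 34.7 and 40.2 in LcPOU5F3 clones, 11.7 and 9.61 in LcPOU5F1 clones, and 7.99 and 7.19 in mOct4 clones, mostly from Lamb1, at 5.04 and 5.21 in LcPOU5F3 clones, and 3 of the 7 listed (Gata6, Sox7 and Foxa2) had no probe well above background on both arrays of a group. Of 7 mesenchyme markers tested, 3 rose (Tagln, Acta2 and Thy1) and Pdgfrb fell, with a list median of -0.31 on the log2 scale. They summed to 43.2 and 107 in LcPOU5F3 clones, 15.4 and 35.2 in LcPOU5F1 clones, and 24.7 and 29.3 in mOct4 clones, and 1 of the 8 listed (Pdgfra) had no such probe. The part of these markers in the tight junction result was not tested.

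The genes whose pattern over the 6 arrays lay nearest to those of Cldn6 and Cldn7 were found by Euclidean distance after removing each gene's mean. For Cldn6 they were Dkk1, Pla2g4a and Tmcc3, with r between 0.984 and 0.993. For Cldn7 they were Galnt3, Tmcc3 and Dkk1, with r between 0.993 and 0.994. Dkk1 and Pla2g4a were not well above background on any LcPOU5F1 or mOct4 array and Galnt3 on 1 of the 2 LcPOU5F1 arrays, so their likeness rests in part on unmeasured signals. Tmcc3 read 3.45 and 3.72 in LcPOU5F3 clones, 1.77 and -1.04 in LcPOU5F1 clones, and -0.85 and -0.96 in mOct4 clones. Its LcPOU5F1 clones were far apart too. These values describe 6 arrays of 3 groups.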

How the data were processed

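RNA of 6 stable lines, 3 groups of 2 clones, was read on 1-colour Agilent arrays, 1 array per line. Per the file headers, the authors extracted the spot intensity with Agilent Feature Extraction 11.0.1.1 (protocol GE1_1100_Jul11, array design on build mm9), and the deposited processed intensity is linear and background-subtracted. The deposited flags (other values, per the file headers) mark outlying spots, saturation and signals well above background.

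Processed intensity was log2 transformed and centred on each array's 75th percentile. Spots flagged as outliers were dropped, and a probe's value is the mean of its spots. Probes entered the test where both arrays of some group were well above background, and the brightest kept probe stood for its gene. Accessions were matched to RefSeq (GRCm38.p6), which named 27656 probes and left 28025 (50.3%) unnamed. Using R 4.3.3 and limma 3.58.1 (lmFit, eBayes), a mean per group was estimated from the 6 arrays together (3 residual degrees of freedom, 5.16 after moderation), with Benjamini-Hochberg adjustment over 14595 genes and a threshold of 0.05. The number of arrays limits the precision.

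Alternatives changed the background correction, centring, normalization, probe filter, floor, probe choice, intensity trend, arrays fitted, threshold, slide and replicate blocks, and left out each array. Normexp used the median spot intensity, and the series matrix held the same values rounded. The steps were tested on simulated data. The members, gene lists, named genes and motifs were chosen with earlier results of these data known: all 9 members are named, and list genes where called, up to 6 per list and comparison; Cldn9, Esrp1, Snai2, Zeb1, Krt8 and Cdx2 were added after their values were seen. A gene that this rule names is not reported here. The array floor for the difference between the LcPOU5F1 clones was added after seeing the data.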

Additional observations from a re-analysis of the deposited data

How the results depend on the processing

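The log2 fold changes of the 9 genes stayed above 0 in LcPOU5F3 clones against mOct4 clones and against LcPOU5F1 clones under each alternative that tested them (Ocln and Crb3 were not tested with a filter on all 6 arrays), while the calls depended on the setting. At an adjusted p under 0.01, 0 of the 9 genes were called against either group (unadjusted p under 0.05 for 9 and 7), with 532 genes called over the array against mOct4, 434 against LcPOU5F1 and 0 for LcPOU5F1 against mOct4. At an adjusted p under 0.1 the array counts were 5330, 4995 and 21. With no filter on dim probes, 4 and 2 of the 9 were called, with 1541, 959 and 0 genes over the array. In fits of only the 4 arrays compared, the array counts were 2194, 498 and 537, and 0 of the 9 were called against LcPOU5F1. A fit that leaves a lone array in the third group is the same fit for the comparison of the others. With the slide as a block, which equals leaving out mOct4 clone 2, 0 of the 9 were called in any comparison, with 41, 498 and 0 genes over the array.

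Leaving out each clone in turn gave 35 to 5109 genes and 0 to 7 of the 9 against mOct4, 487 to 5920 genes and 0 to 6 of the 9 against LcPOU5F1, and 0 to 537 genes and 0 of the 9 for LcPOU5F1 against mOct4. Over LcPOU5F1, the log2 fold change then lay between 0.76 and 3.29 for Cldn3, 2.60 and 3.87 for Cldn4, and 1.06 and 2.82 for Crb3. The cause of these shifts was not tested. In these same fits the log2 fold change of LcPOU5F1 over mOct4 changed sign with the LcPOU5F1 clone kept: it lay between -0.80 and 1.73 for Cldn3, -1.04 and 0.23 for Cldn4, -0.032 and 2.07 for Cldn7, -0.084 and 0.72 for Tjp3, and -0.65 and 0.43 for Cgn. For Ocln it lay between -0.92 and 0.76, from signals of which only that of mOct4 clone 1 was measured, so no direction can be read.

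For LcPOU5F1 against mOct4, where the main count was 5 genes (2 higher and 3 lower), centring on the median called 750 (47 higher and 703 lower) and 1 of the 9 (Cldn6). It moved the median log2 fold change of all genes to -0.27, against 0.10 with the 75th percentile, and Tjp1 and Tjp3 then read -0.11 and -0.051. For LcPOU5F3 against LcPOU5F1 it turned 1456 higher and 1531 lower calls into 1852 and 502, quantile normalization gave 1772 and 1176, and the 75th percentile of probes measured on all arrays 1616 and 998. For LcPOU5F1 against mOct4, quantile normalization called 105 genes (7 higher), normexp 13, an intensity trend 29, and a filter on all 6 arrays 0, with 0 of the members tested each time (7 with that filter, 9 otherwise), and normexp gave Ocln, not measured in LcPOU5F1, a value of 0.14. The cause was not tested. With normexp, 9 of the 9 were called for LcPOU5F3 against mOct4. The share of all genes called with normexp in that comparison is not given here, so the count is not read as a result about the 9 genes.

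The groups LcPOU5F3 and mOct4 share clone numbers, which name separately picked colonies and do not pair them (the deviations of same-numbered clones correlated at -0.0966 over genes). With clone number as a replicate block, 0 genes and 0 of the 9 were called in limma, with 4404 genes and 9 of the 9 at an unadjusted p under 0.05.

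Precision is limited by 2 clones per group and by signal over background: Ocln in the LcPOU5F1 and mOct4 clones and Crb3 in LcPOU5F1 clone 5 were close to the lowest measurable signals.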
